A study of Arabidopsis thaliana with 12 samples.

Results

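The genes described here are 4 enzymes of carbon metabolism and a gene annotated as carbohydrate kinase-like, measured in Arabidopsis thaliana plants given proline or water. They are PRK (AT1G32060, phosphoribulokinase), ATSPS4F (AT4G10120, a sucrose phosphate synthase), PPDK (AT4G15530, pyruvate orthophosphate dikinase), AT4G17260 (a lactate dehydrogenase) and AT1G06730 (the carbohydrate kinase-like gene). Each was taken from the single array feature, numbered 3151, 2649, 349, 3316 and 3026 in that order, whose platform annotation named that gene alone. These 5 are among 692 features with 1 gene of 3439 features on the array, where 870 others carried several genes and 1877 had none given. The members were picked with the proline and water values of these samples in view, so their differences are given as a description, with no test.

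Total RNA came from plants given 100 mM proline for 3 h (6 samples) and from plants given water (6 samples), all wild type of the ecotype Wassilevskija. The comparison asks how transcript levels differ when proline is supplied at a dose that the labels call toxic. Only the proline titles carry a time, so proline and a different duration cannot be told apart by the labels. The sources used here do not give the plant part, age, growth conditions or light. They also do not say whether samples of a group came from separate plants, so any p-value measures a spread that may be technical. In samples of whole tissue, fewer cells that express a gene and less of its RNA per cell cannot be told apart.

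Plants fix carbon in the chloroplast through the Calvin-Benson cycle, in which PRK makes the sugar phosphate that accepts carbon dioxide. Part of the fixed carbon leaves for the cytosol, where sucrose phosphate synthase commits hexose phosphates to sucrose, the sugar most plants transport. PPDK links pyruvate to phosphoenolpyruvate at the entry to sugar and amino acid synthesis, and lactate dehydrogenase reduces pyruvate to lactate, a route best known when oxygen is short. Carbohydrate kinases add phosphate to sugars and related compounds, which brings them into metabolism. Proline itself is broken down in mitochondria to glutamate, whose carbon can enter respiration.

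Values are the authors' relative intensity, a linear scale with exact zeros and a ceiling of 100. Changes are differences in log2 intensity after quantile normalization, proline minus water, from a fit across 2861 features. Intensities of different features are not set against each other. From 453 to 534 features were at 0 on each array, and the number of arrays limits the precision. The scale matters for these genes because the 75th percentile of log2 intensity was 0.37 higher on proline arrays (mean -0.74) than on water arrays (mean -1.11), while the median was 0.20 higher. Quantile normalization removes such a difference, and it lowered the log2 change of PRK, PPDK, ATSPS4F and AT1G06730 by 0.24 to 0.31 and raised that of AT4G17260 by 0.38. The median change of all tested features was -0.12 after normalization and 0.06 as deposited, so both scales are given below.

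Among the 5 genes, AT1G06730 had a much higher intensity after proline, ATSPS4F and PPDK had moderately higher intensities, PRK was lower in normalized values, and AT4G17260 was at or near 0 throughout. In the normalized fit 3 of the 5 lay past an adjusted p of 0.05 (AT1G06730 and ATSPS4F higher, PRK lower), where 44.1% of all tested features did, 18.3% higher and 25.9% lower. Blocking on the replicate number gave 4 of the 5, PPDK included, where 1360 of the 2861 features were called. With successive replicates averaged it was AT1G06730 alone, where 686 features were called, against 1263 in the normalized fit. Features with too few complete pairs, AT4G17260 among them, could not be fitted. The 686 are thus out of fewer than 2861 features, among them all 2674 measured on all 12 arrays. As deposited it was also 3 of the 5 (AT1G06730, ATSPS4F and PPDK, all higher), against 41.4% of all features, 24.5% higher and 16.9% lower. All deposited proline values lay above all water values for PPDK, ATSPS4F and AT1G06730, as for 18.2% of the 2674 features measured on all 12 arrays, and after normalization for AT1G06730 alone, as for 12.8%. Because the members were chosen from this comparison, nothing is read from these counts.

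**Figure D1:**
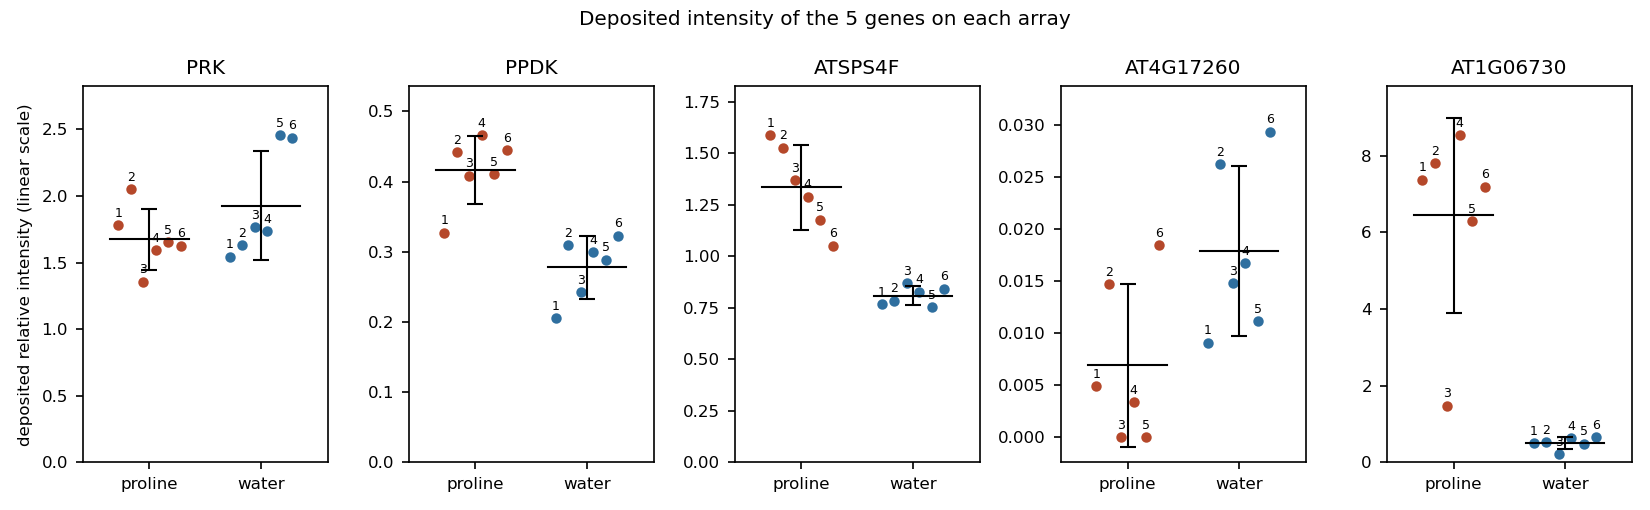
Deposited relative intensity (linear vertical axis, separate for each gene) on each array, with proline samples on the left and water samples on the right. Numbers are replicate numbers, horizontal lines are means and bars are SD (n = 6 each). The groups do not overlap for PPDK, ATSPS4F and AT1G06730, and they overlap for PRK and AT4G17260.

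PRK, the enzyme that regenerates ribulose bisphosphate, had a deposited intensity of 1.36 at the lowest, 1.64 at the median and 2.05 at the highest in proline samples, against 1.54, 1.75 and 2.46 in water samples. The means were 1.68 ± 0.229 after proline and 1.93 ± 0.409 in water (SD, n = 6 each). The groups overlapped, and the spread was wider in water, with a coefficient of variation of 13.6% after proline and 21.2% in water. The log2 change was -0.43 ± 0.13 (SE) after normalization and -0.19 ± 0.14 as deposited.

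The sign for PRK depended on which replicates were compared. Replicates 1 and 2 averaged 1.91 after proline and 1.59 in water, replicates 3 and 4 averaged 1.47 after proline and 1.75 in water, and replicates 5 and 6 averaged 1.64 after proline and 2.45 in water. As deposited these pairs had log2 differences of 0.27, -0.25 and -0.58, and after normalization 0.02, -0.50 and -0.80. The highest proline values were thus in replicates 1 and 2, where water was lowest, and the highest water values were in replicates 5 and 6. Mixed signs over the 3 pairs are common on these arrays, at 36.2% of the 2674 features measured on all 12 arrays after normalization and at 37.3% as deposited. Without replicates 5 and 6 of both groups the normalized log2 change of PRK was -0.24, and without replicates 1 and 2 it was -0.64.

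ATSPS4F, which makes sucrose phosphate, had a deposited intensity of 1.05 to 1.59 in proline samples (median 1.33), against 0.753 to 0.869 in water samples (median 0.807). The means were 1.33 ± 0.205 after proline and 0.808 ± 0.0462 in water (SD, n = 6 each), a ratio of 1.65. No proline sample was as low as any water sample. On the log2 scale the change was 0.71 ± 0.11 (SE) as deposited and 0.40 ± 0.13 after normalization, where the groups overlapped through proline replicate 6.

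The spread of ATSPS4F lay mostly in the proline samples, with a coefficient of variation of 15.3% there and 5.72% in water. Replicates 1 and 2 averaged 1.56 after proline and 0.776 in water, replicates 3 and 4 averaged 1.33 after proline and 0.849 in water, and replicates 5 and 6 averaged 1.11 after proline and 0.798 in water. The log2 differences of these pairs were 1.0, 0.65 and 0.48 as deposited and 0.72, 0.37 and 0.10 after normalization. Every pair had the higher value after proline, while the size differed between pairs. Within numbers, proline replicate 6 was 0.32 above water replicate 6 as deposited and -0.07 from it after normalization, the only number at which the normalized difference was negative. Without replicates 1 and 2 of both groups the normalized change was 0.23.

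PPDK, which forms phosphoenolpyruvate from pyruvate, had a deposited intensity of 0.327 to 0.466 in proline samples (median 0.426), against 0.206 to 0.323 in water samples (median 0.294). The means were 0.417 ± 0.049 after proline and 0.278 ± 0.0449 in water (SD, n = 6 each), a ratio of 1.5 for proline over water. The lowest proline sample lay just above the highest water sample, so the deposited groups did not overlap, but they overlapped after normalization. The log2 change was 0.59 ± 0.13 (SE) as deposited and 0.29 ± 0.13 after normalization.

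PPDK had the narrowest range of differences within replicate numbers among the 5. At each of the 6 numbers the proline sample was above the water sample, by 0.46 to 0.75 on the log2 scale as deposited and by 0.17 to 0.48 after normalization. Replicate 1 was the lowest of its group in both groups, at 0.327 after proline and 0.206 in water. Over the 6 numbers the normalized proline and water values had a Pearson r of 0.96 and a Spearman rho of 0.94, and r was 0.94 without numbers 1 and 3, the farthest from the median in water. The same r was 0.98 for AT1G06730 (0.62 without numbers 3 and 4), 0.69 for AT4G17260 over 4 numbers, -0.57 for PRK and -0.05 for ATSPS4F. These are descriptions over at most 6 points that share their replicate number.

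**Figure D2:**
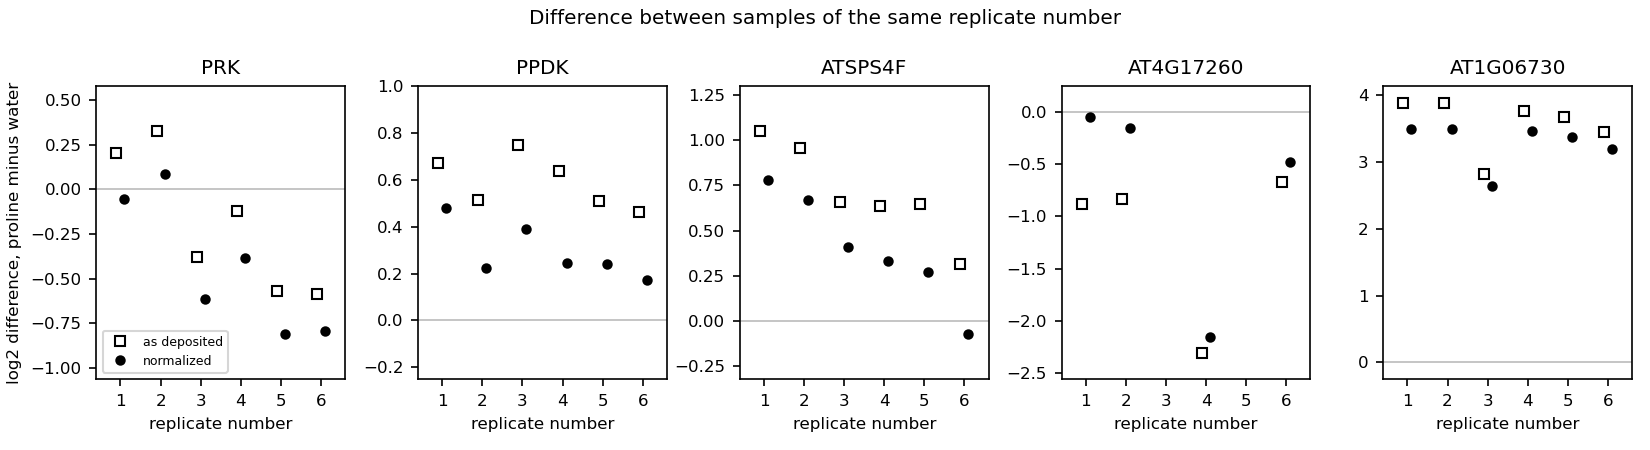
Log2 difference (vertical axis, proline minus water) between the samples of each replicate number (horizontal axis), open squares as deposited and filled circles after quantile normalization. All 12 points of PPDK and of AT1G06730 lie above 0, while PRK is above 0 as deposited at numbers 1 and 2 and below 0 at the other numbers. AT4G17260 has no point at numbers 3 and 5, where its proline sample was listed at 0.

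AT4G17260, the lactate dehydrogenase gene, was listed at 0 in proline replicates 3 and 5. The other proline samples had intensities of 0.00491, 0.0147, 0.00336 and 0.0184 (replicates 1, 2, 4 and 6), against 0.00906 to 0.0293 in the 6 water samples (median 0.0157). All of its values were thus at 0 or close to it on a scale that runs to 100. Where above 0, they exceeded only 0.51% to 4.3% of the features above 0 on the same array. At each of the 4 numbers with both values (1, 2, 4 and 6) the proline sample was the lower one. The log2 differences there were -0.89, -0.84, -2.31 and -0.67 as deposited, and -0.05, -0.16, -2.16 and -0.48 after normalization, so at numbers 1 and 2 little of the difference was left. The fitted log2 change, which leaves the zeros out, was -0.62 ± 0.59 (SE) after normalization and -1.0 ± 0.52 as deposited. With zeros set to the lowest value in the table it was -2.95 ± 2.1, and with 0.1 added to each intensity it was -0.03, so its size was set by how near-zero values were treated. Without replicates 3 and 4 of both groups it was -0.15.

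AT1G06730, the carbohydrate kinase-like gene, had a deposited intensity of 1.48 at the lowest, 7.28 at the median and 8.54 at the highest in proline samples, against 0.209, 0.514 and 0.658 in water samples. The means were 6.44 ± 2.54 after proline and 0.502 ± 0.159 in water (SD, n = 6 each), a ratio of 12.8. Every proline sample exceeded every water sample on both scales. The log2 change was 3.28 ± 0.41 (SE), or 9.7-fold, after normalization and 3.58 ± 0.43, or 12-fold, as deposited. It ranked 11 in size among the rises of the 2861 features tested, and the gene was picked with these values in view.

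Replicate 3 of AT1G06730 was low in both groups. The intensity there was 1.48 after proline, where the other 5 samples had 6.29 to 8.54, and 0.209 in water, where the other 5 had 0.492 to 0.658. Within replicate 3 the proline sample was still 7.08 times the water sample, against 10.9 to 14.9 times at the other numbers. Without replicate 3 of both groups, a choice made after the values were seen, the normalized log2 change was 3.41.

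The low values of replicate 3 were shared by the feature next in number. Feature 3027, which carries several genes and is therefore not named, had an intensity of 0.0375 in proline replicate 3 and 0.431 to 0.516 in the other proline samples, against 0.121 in water replicate 3 and 0.436 to 0.511 in the other water samples. Apart from replicate 3 its deposited proline and water values overlapped, while its normalized log2 values were -1.32 to -1.15 after proline and -1.02 to -0.81 in water. Over all samples its log2 change was -0.52 ± 0.58 (SE). Over 12 arrays the deviations of AT1G06730 and feature 3027 from their group means had an r of 0.98, the highest among 2673 features. The 5 measured features within 5 numbers of AT1G06730 had an r of -0.73 to 0.98. By Dixon's limit for outlying samples, 11 of 2674 features had an outlying value at the same replicate number in both groups, all of them low. Of these, 4 were in replicate 3, with AT1G06730 and feature 3027 themselves among them. Another 4 were in replicate 4, among them the closely numbered features 2451, 2453 and 2456. The sources used here do not say how feature numbers map to places on the array, and the part of position in these values was not tested.

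**Figure D3:**
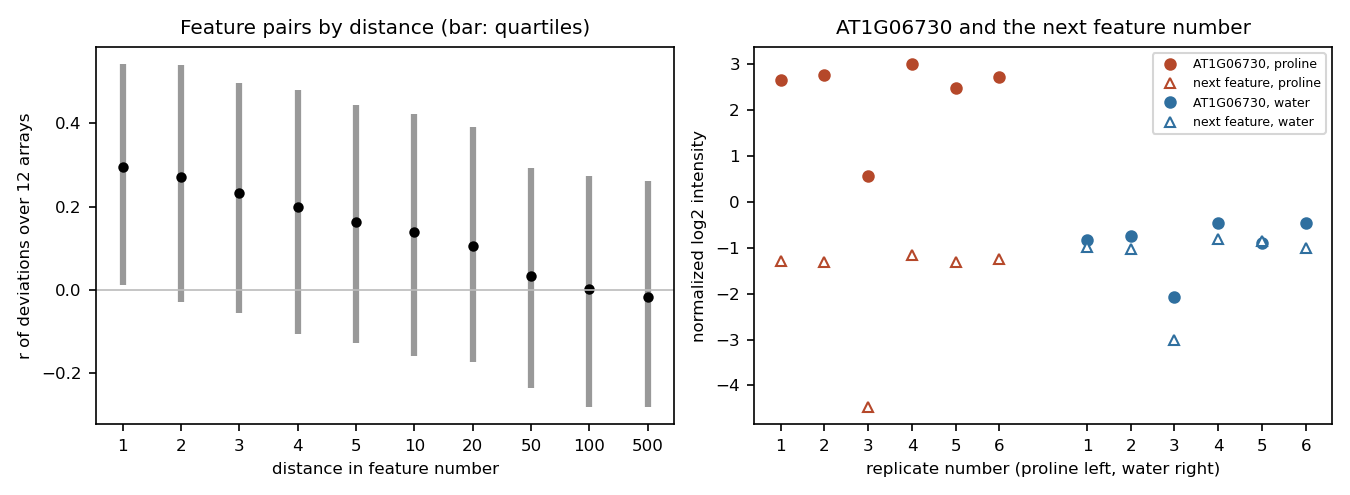
Left, Pearson r of deviations from group means over 12 arrays (vertical axis) between features by their distance in feature number (horizontal axis), points for medians and bars for quartiles, falling from 0.30 at distance 1 to -0.02 at distance 500. Right, normalized log2 intensity of AT1G06730 (circles) and of the next feature (triangles) by replicate number, proline samples left and water samples right, with both features low in replicate 3 of both groups.

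Features close in number varied together across the array set. The median r of their deviations was 0.30 at a distance of 1 (1598 pairs), 0.16 at 5, 0.14 at 10, 0.03 at 50 and 0.00 at 100. For PRK the 6 measured features within 5 numbers had an r of -0.24 to 0.83 (median 0.455), with 0.65, 0.75 and 0.83 for those 1, 2 and 3 numbers above it. For ATSPS4F the 7 such features had an r of -0.21 to 0.91 (median 0.451), with 0.13 and 0.02 for those directly beside it. The 5 such neighbours of PPDK had a median r of 0.05 and the 7 of AT4G17260 had one of 0.01. Over all features the median r with PRK was 0.01 and that with ATSPS4F was 0.02. When each array was centred on the features within 10 numbers, an alternative added after the data were seen, the log2 changes were -0.38 ± 0.11 (SE) for PRK, 0.43 ± 0.10 for ATSPS4F, 0.48 ± 0.17 for PPDK, -0.48 ± 0.61 for AT4G17260 and 3.65 ± 0.42 for AT1G06730. This centring used the neighbours' deviations from their means over all arrays, not from group means. It therefore also subtracted the neighbours' own difference between proline and water.

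**Figure D4:**
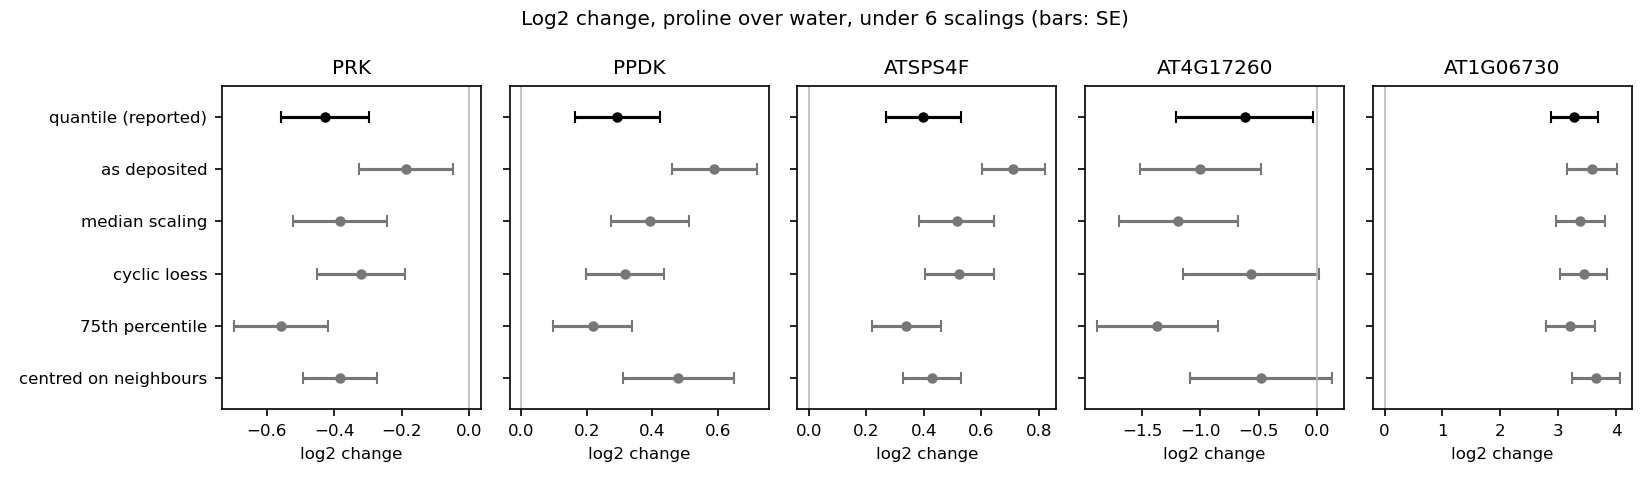
Log2 change of each gene, proline over water (horizontal axis, separate for each gene), under quantile normalization and 5 other scalings, with bars of 1 SE. No gene changes sign, PRK runs from -0.56 to -0.19 and PPDK from 0.22 to 0.59, and AT1G06730 stays between 3.21 and 3.65.

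Both ends of the range came from the same scalings for PRK, PPDK and ATSPS4F. Scaling each array to its 75th percentile, added after the data were seen, gave PRK its lowest change (-0.56) and PPDK (0.22) and ATSPS4F (0.34) their smallest, and the values as deposited gave the highest for each of the 3. The other scalings lay between in differing order, with cyclic loess at -0.32 for PRK, 0.32 for PPDK and 0.52 for ATSPS4F. The deposited and 75th percentile values differ by a constant for each array, so the gap between them was the same 0.37 on the log2 scale for PRK, PPDK and ATSPS4F. The 6 scalings spanned 0.44 for AT1G06730 and 0.89 for AT4G17260.

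Other genes of the same pathways were sparsely covered. Of 159 genes on 6 lists (Calvin-Benson cycle, sucrose, starch, glycolysis and the pyruvate node, fermentation, and carbohydrate kinases), 7 had a feature of their own, and these were the 5 members, SBPASE and AT1G17160. SBPASE, the sedoheptulose bisphosphatase that acts a few steps before PRK in the Calvin-Benson cycle, was listed at 0 on all 12 arrays. No starch gene had a feature of its own. A further 5 features carried a list gene together with others, and of the 4 tested none was called higher and 2 were called lower (limma, adjusted p under 0.05), or 1 for the Calvin-Benson cycle and 1 for starch, where 18.3% of all tested features were called higher and 25.9% lower.

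AT1G17160, listed here with AT1G06730 among the carbohydrate kinases, was no member and was tested, though the lists were chosen with earlier results of these data known. Its intensity was 2.87 to 3.51 in proline samples (median 3.12), against 1.89 to 2.47 in water samples (median 2.05). The means were 3.16 ± 0.25 after proline and 2.12 ± 0.235 in water (SD, n = 6 each), and the deposited groups did not overlap. It rose 1.27-fold after normalization (log2 0.34 ± 0.11 SE, limma adjusted p = 0.0283), with the proline sample higher at 5 of 6 replicate numbers, and as deposited its log2 change was 0.58 (limma adjusted p = 0.000361), higher at 6 of 6. The call was lost with the replicate number as a block (limma adjusted p = 0.0602), with successive replicates averaged (0.196) and after 75th percentile scaling (0.12). It was also lost without water replicate 1, 2 or 6 or proline replicate 1 or 2, at limma adjusted p of 0.0543 to 0.0612. Over all alternatives the limma adjusted p ran from 0.000148, when centred on neighbouring features, to 0.307, without replicates 1 and 2 of both groups. That centring also subtracts the neighbours' own difference between proline and water, so its low p is not a matter of scatter alone. Whether its change differs from that of AT1G06730 was not tested.

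Between replicates, the r of deviations from group means over the 10 pairs of the 5 genes ran from -0.31 (ATSPS4F and AT1G06730) to 0.55 (PPDK and AT4G17260, 10 arrays). It was below 0 for 3 pairs, all with ATSPS4F, and 0.06 or higher for the pairs among the other genes. Among 534 other single-gene features, those whose deviations were most like PRK were AT4G01310 (r = 0.84), AT1G02020 (0.83) and AT3G16310 (0.80). For ATSPS4F they were AT3G08000 (r = 0.88), UBA1A (0.82) and AT5G52970 (0.82), and for PPDK they were AGL26 (0.86), AT1G73090 (0.82) and AT2G47390 (0.72). For AT1G06730 they were AT1G58230 (r = 0.89), CCS, the copper chaperone for superoxide dismutase (0.88), and AT5G41960 (0.82), over 12 arrays in each case. For AT4G17260, over the 10 arrays with a value and 535 features, they were AT4G00870 (r = 0.91), AT2G33180 (0.83) and AT3G12000 (0.80). By rank the likeness to AT1G06730, which was low in replicate 3 of both groups, had a Spearman rho of 0.89 for AT1G58230, 0.72 for CCS and 0.43 for AT5G41960. Likeness to ATSPS4F was closer in proline samples (r of 0.95 for AT3G08000, 0.92 for UBA1A and 0.87 for AT5G52970) than in water samples (0.49, 0.245 and 0.54). The points share arrays and replicate numbers, and each r was picked as among the highest. Group means were removed first, so the difference between proline and water does not enter this likeness. Of these 15 genes, 4 passed the test, where 44.1% of all tested features did. AT3G08000 fell by 0.83 on the log2 scale (limma adjusted p = 0.00314), AGL26 fell by 0.33 (limma adjusted p = 0.0234), AT2G33180 fell by 1.95 (limma adjusted p = 3.46e-06) and AT5G41960 rose by 0.46 (limma adjusted p = 0.0169). AT3G08000 and AGL26 thus moved opposite to the difference of the gene they resembled, and AT2G33180 and AT5G41960 moved the same way. The change of AT4G17260, which AT2G33180 resembled, was -0.62 ± 0.59 (SE), so its own direction is not settled. With so large a share of all features called, nothing is read from these directions.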

How the data were processed

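One-colour arrays gave 1 value per feature and sample for 6 proline and 6 water samples, grouped by their titles. The authors deposited relative intensity values, linear and never negative, and the sources used here do not give their background subtraction, scaling or ceiling. Zeros were set to missing, values were put on the log2 scale and quantile normalized, and features with values in 4 or more samples of both groups were tested (2861 of 3439). The proline minus water difference was fitted with limma 3.58.1 under R 4.3.3 (lmFit and eBayes without a block), with two-sided p-values adjusted by Benjamini-Hochberg across the tested features and called under 0.05. Levels are means ± SD of deposited intensities, zeros included. Gene names come from an old platform annotation in GEO and are used where a feature has 1 gene. Of these 692, 691 matched a TAIR10.1 locus.

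The members and lists were chosen with earlier results of these data known. Named genes are the members, every other list gene with its own feature, and for each member the 3 single-gene features with the highest correlation of deviations from group means. AT1G06730's neighbour, feature 3027, and the other neighbours were looked at after its values were seen. On simulated data with 12 independent samples made from the 2861 features, 200 of them changed, the fit found 94.2% of log2 changes of 2. It found 74.6% of 1 and 36.8% of 0.5, with 3.87% false calls. In the data 44.1% of features were called and samples of the same number deviated together, so these rates need not hold there.

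Replicate numbers 1 to 6 occur in both groups, with no meaning given in the labels. Deviations of same-numbered samples correlated at 0.403, 0.37, 0.255, 0.257, 0.283 and 0.184 over 2674 features, so the numbers pair the samples, from the data. The SE in the Results come from fits without a block and do not use this pairing. Successive replicates of a group (1 and 2, 3 and 4, 5 and 6) also deviated together, with a mean correlation of 0.206. Alternatives covered scaling, the filter, zeros and a pseudocount, a block for the replicate number, successive replicates averaged or as a random block (statmod 1.5.0), array weights, a stricter threshold, and samples left out. No sequences are shown because the tables used here hold none.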

Additional observations from a re-analysis of the deposited data

Results flagged for a closer look

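Dixon's limit for an outlying sample was passed in 4 of 42 groups of 4 to 6 normalized values, where chance gives about 2.1. AT1G06730 was at 0.56 in proline replicate 3, with the other proline samples between 2.49 and 3.00, and at -2.08 in water replicate 3, with the other water samples between -0.89 and -0.46. CCS, whose scatter resembled that of AT1G06730, was at -5.55 in proline replicate 3, with the others between -3.47 and -3.02. AGL26, whose scatter resembled that of PPDK, was at -0.99 in water replicate 1, with the others between -0.71 and -0.59. CCS and AGL26 were chosen for that resemblance, so their low values are no separate result.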

How the results depend on the processing

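No member's log2 change turned its sign under any of the 29 or 30 alternatives (21 for AT4G17260, which could not be fitted in the others). For members with a value on all 12 arrays, the filter, the blocks and the averaging cannot alter the log2 change. Those settings therefore say nothing about its sign. AT1G06730 ran from 3.04 to 3.65 over all 30, within 0.765 (the SD of its normalized log2 values within groups) of 3.28. As deposited the log2 changes of PRK, PPDK and ATSPS4F were -0.19, 0.59 and 0.71, and that of AT4G17260 was -2.95 when the lowest value replaced zeros. Leaving out samples gave -0.64 to -0.24 for PRK, 0.20 to 0.35 for PPDK, 0.23 to 0.54 for ATSPS4F, -0.86 to -0.15 for AT4G17260 and 3.04 to 3.64 for AT1G06730. For AT4G17260 no proline sample with a value above 0 could be left out singly, as too few values then remained for a fit. Its range therefore covers fewer omissions than those of the other genes. With the replicate number as a block 1360 features were called, 580 higher and 780 lower, against 1263 (523 and 740) without it. The block gave the members log2 changes of -0.43, 0.29, 0.40, -0.71 and 3.28 in the order PRK, PPDK, ATSPS4F, AT4G17260 and AT1G06730. In that order the SE were 0.15, 0.08, 0.12, 0.39 and 0.13 with the block. They were 0.13, 0.13, 0.13, 0.59 and 0.41 without it, and 0.15, 0.21, 0.15, 0.83 and 0.66 with successive pairs as a random block. Among the list genes PPDK passed under the replicate block and AT1G17160 did not.

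With successive replicates averaged 686 features were called (335 higher, 351 lower), or 774 (388 higher, 386 lower) with the pair as a block besides. Called lower were 483 as deposited, 489 at an adjusted p under 0.01 and 1173 after 75th percentile scaling, where 397 were higher. Leaving out samples gave 972 to 1219 calls, 433 to 520 higher and 539 to 715 lower. Of the 6 list genes tested, 3 were higher and 1 lower, where 18.3% and 25.9% of all tested features were, and 5 of the 6 are members chosen from these values, so their calls support nothing. Leaving out samples gave 1 to 3 higher and 0 to 1 lower. Only 1 was higher with the replicates averaged (with or without the pair as a block), with pairs as a random block and at an adjusted p under 0.01, namely AT1G06730. Calls over all features fell there too, from 523 higher to 391 with pairs as a random block (496 lower) and to 391 at an adjusted p under 0.01. After cyclic loess 605 of all features were called lower, against 740 in the main fit. After 75th percentile scaling 2 were lower. None was lower in limma as deposited or with the replicates averaged (0 also at an unadjusted p under 0.05), nor after cyclic loess or at an adjusted p under 0.01 (1 at an unadjusted p under 0.05). The cause was not tested. The sources used here give no signal over background, so the limit for dim features such as AT4G17260 cannot be stated.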
